A study of Mus musculus with 40 samples.

Results

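The enzymes described here handle reactive aldehydes, glutathione and peroxides. They were followed in mouse embryos cultured with 4-hydroperoxycyclophosphamide, which releases the active forms of the DNA-alkylating drug cyclophosphamide without liver metabolism. RNA of embryos cultured with 40 µM of the drug for 5 h at 37 °C was set against RNA of untreated control embryos cultured at 37 °C, on 40 2-colour cDNA arrays of 2 designs, each with 5 replicates. The sources used here give neither strain nor embryonic stage nor how many embryos made up a sample. Nothing says that the replicates came from separate cultures, so the p-values reflect spread that may be technical, and the number of arrays limits the precision.

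Members were taken from both tables by the start of their gene symbol: Aldh, Adh, Akr, Cbr, Ephx, Gst, Mgst, Gpx, Prdx, Gcl, Glrx, Sod or Txn (without Txnrd1), with Gss, Gsr, Cat and Nqo1 added. The rule found 53 of the 6970 genes named on the arrays, measured by 65 probes among 15279. Array design 1 held 20 of the probes and array design 2 held 45. Akr1a1 and Gpx1 were on both designs, and 11 genes had 2 or more probes. No probe was assigned to Nqo1 or to Gsr alone. The rule goes by name and so also took Txnip, which binds and inhibits thioredoxin, and Txnl4a, a component of the spliceosome.

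Cyclophosphamide metabolism passes through the aldehyde aldophosphamide. Aldehyde dehydrogenases, chiefly Aldh1a1, oxidise aldophosphamide to an inactive acid, while its spontaneous breakdown yields phosphoramide mustard, which alkylates DNA, and acrolein, an aldehyde that reacts with thiols. Glutathione S-transferases join such electrophiles to glutathione, aldo-keto and carbonyl reductases reduce carbonyl groups, and peroxidases, peroxiredoxins and thioredoxins remove peroxides and restore oxidised thiols. Many of these genes are known targets of the transcription factor NRF2, which acts through the antioxidant response element.

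All values are log2 ratios of treated over control embryos after each array's median was set to 0, with 1 value per replicate that averages both dye orientations. Base 2 was assumed. The numerator of the deposited ratio is not stated, and arrays of one orientation correlated between −0.54 and 0.89 over all probes of array design 2 and between −0.31 and 0.89 on array design 1. Channel 1 was taken as the numerator. Were it channel 2, each rise given here would be a fall and each fall would be a rise. In RNA of whole embryos, fewer cells of a type and less RNA per cell cannot be told apart. Each slide has a plain readout and a second one marked B, a mark the labels do not explain. The B readout of replicate 4 on array design 1 with treated embryos in channel 2 lacked 786 of 7680 values (10.2%). It is called the failing readout here, and results of that design are given with and without it. As a measure of a strong response, the p53 target Ccng1 had a log2 ratio of 1.39 ± 0.40 on array design 2 (mean and SD of 5 replicates, limma adjusted p = 2.35e-09).

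The promoters of some members are shown from 250 bases before to 50 bases after the annotated start (RefSeq, GRCm38.p6, each on the strand of its gene). Such windows were found for 47 of the 53 genes. Capitals mark matches, on either strand, to the core of the antioxidant response element, TGACNNNGC, or to the AP-1 element TGANTCA. Prdx1, Sod1 and Akr1c19 are shown because they are the called genes with the first motif, and Gpx3 because it had the highest mean log2 ratio of the member probes of array design 2.
Prdx1, chr4:116685349-116685648, plus strand: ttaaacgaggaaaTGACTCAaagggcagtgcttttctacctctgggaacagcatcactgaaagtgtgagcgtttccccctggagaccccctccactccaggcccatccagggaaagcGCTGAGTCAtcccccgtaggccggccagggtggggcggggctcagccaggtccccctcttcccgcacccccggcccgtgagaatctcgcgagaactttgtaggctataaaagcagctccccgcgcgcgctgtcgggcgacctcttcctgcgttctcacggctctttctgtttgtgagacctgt
Sod1, chr16:90220512-90220811, plus strand: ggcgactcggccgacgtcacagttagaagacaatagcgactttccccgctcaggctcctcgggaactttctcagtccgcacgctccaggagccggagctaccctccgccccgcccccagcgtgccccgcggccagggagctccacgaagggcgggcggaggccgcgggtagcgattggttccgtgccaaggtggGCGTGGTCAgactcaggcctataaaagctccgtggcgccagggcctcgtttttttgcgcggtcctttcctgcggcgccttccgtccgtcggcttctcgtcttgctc
Akr1c19, chr13:4233490-4233789, plus strand: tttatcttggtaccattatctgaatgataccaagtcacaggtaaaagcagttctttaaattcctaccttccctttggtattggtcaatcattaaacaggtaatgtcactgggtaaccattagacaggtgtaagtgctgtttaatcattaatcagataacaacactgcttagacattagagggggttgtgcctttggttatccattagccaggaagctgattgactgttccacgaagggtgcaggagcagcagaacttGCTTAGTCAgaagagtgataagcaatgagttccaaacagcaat
Gpx3, chr11:54902604-54902903, plus strand: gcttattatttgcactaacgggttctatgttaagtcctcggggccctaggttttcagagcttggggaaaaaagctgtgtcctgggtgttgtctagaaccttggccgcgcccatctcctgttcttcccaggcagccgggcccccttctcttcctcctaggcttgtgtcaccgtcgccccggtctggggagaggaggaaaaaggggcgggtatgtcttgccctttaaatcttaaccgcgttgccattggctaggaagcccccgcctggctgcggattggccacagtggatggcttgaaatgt

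The antioxidant core lies on the minus strand in Prdx1, Sod1 and Akr1c19, and in Prdx1 it overlaps 1 of 2 AP-1 matches. It occurred in the windows of 9 of 47 member genes (19.1%), against 3781 of all 27025 genes with a window (14%). AP-1 matches occurred in 5 of 47 (10.6%), against 8.97% of all genes. Of the 22 member genes with a window that passed the test below on array design 2, or on array design 1 without the failing readout, 3 held the antioxidant core, as did 6 of the 25 that did not pass. Gpx3 held neither motif in its window. A match describes the letters and is not a measured binding site.

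On array design 2, Gpx3, Sod1, Txn1 and the aldehyde reductase Akr1a1 were among the transcripts higher in treated embryos. Of 45 probes, 18 passed the test higher and 2 lower (limma, Benjamini-Hochberg adjusted p under 0.05). Over all 7599 probes of that design 27.8% passed, 19.8% higher and 8.07% lower. The median log2 ratio was 0.11 over the members and 0.02 over all probes. The highest rise was 1.47-fold, and the called rises started at 1.12-fold. The calls rest on the centring: without it 33 of the 45 probes passed, all lower, as did 87.6% of all probes (87.3% lower), and on array design 1 it was 3 of 20, all lower, beside 60.1% of all probes (59.8% lower).

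**Figure D1:**
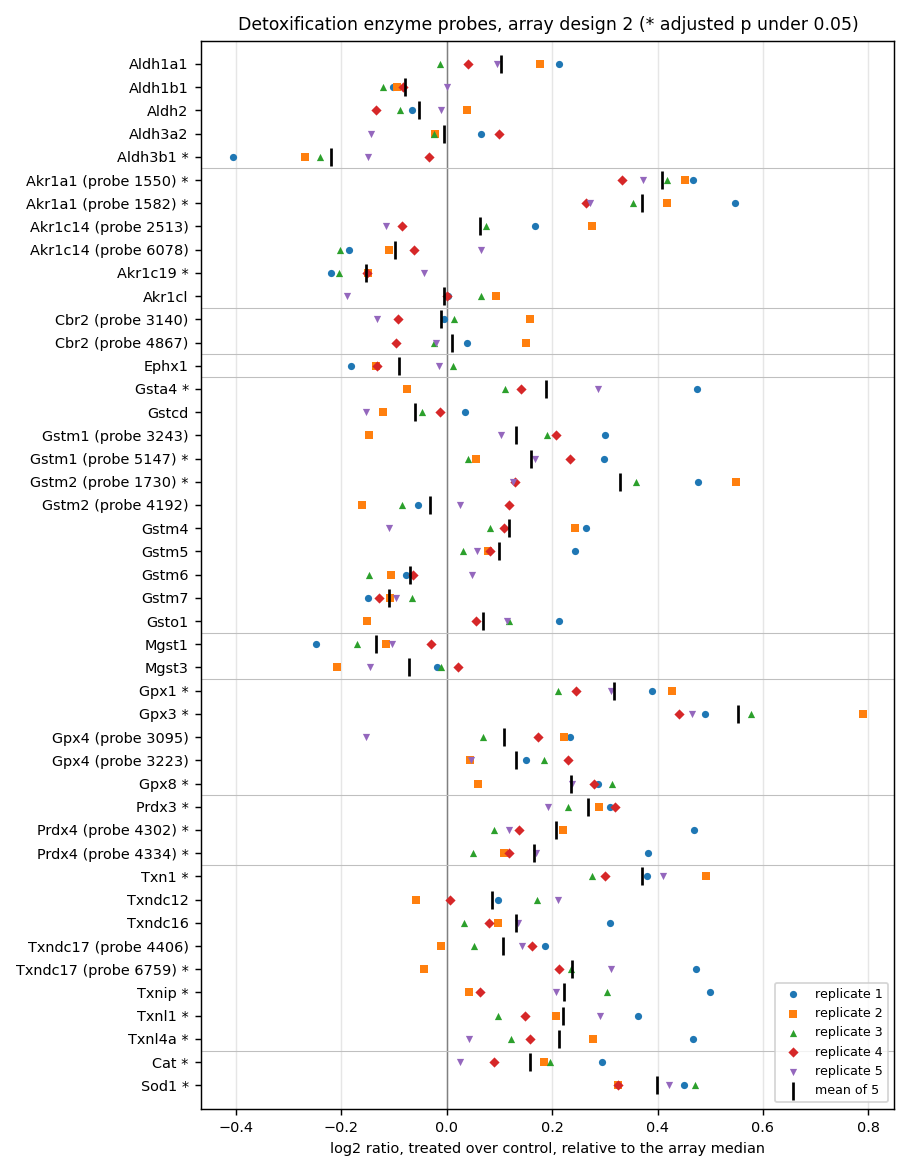
Log2 ratios of treated over control embryos, relative to the array median, for the 45 detoxification enzyme probes of array design 2. Coloured points are the 5 replicates, black ticks their mean, and asterisks mark the 20 probes with limma adjusted p under 0.05; Gpx3 is highest with a mean of 0.55 and Aldh3b1 lowest with −0.22.

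Among the enzymes that meet the drug's aldehydes directly, 8 aldehyde dehydrogenase genes were measured over both designs, 1 probe each. Aldh1a1, the cytosolic enzyme best known for inactivating aldophosphamide, had log2 ratios of 0.21, 0.18, −0.01, 0.04 and 0.09 in replicates 1 to 5 on array design 2. The mean of 0.10 had a 95% confidence interval from −0.01 to 0.21 (limma adjusted p = 0.155). That interval reflects the spread of the 5 centred replicate values only. Aldh1a1 averaged 0.46 with treated embryos in channel 1 and −0.25 with treated embryos in channel 2. Without centring its mean was −0.33. Aldh3b1, which oxidises medium- and long-chain lipid aldehydes, had −0.41, −0.27, −0.24, −0.03 and −0.15. Treated embryos were below control embryos in all 5 replicates, least in replicate 4, and the fall by 0.22 passed (SD 0.14, n = 5, limma adjusted p = 0.0075). The call ended without replicate 1 (limma adjusted p = 0.0614).

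The mitochondrial Aldh2, which oxidises acetaldehyde, averaged −0.05 ± 0.07, and mitochondrial Aldh1b1 averaged −0.08 ± 0.05 (SD, n = 5 each). Aldh3a2, the fatty aldehyde dehydrogenase of the endoplasmic reticulum, averaged −0.01 ± 0.09. None of these 3 passed. On array design 1, Aldh7a1, which handles lysine breakdown and lipid aldehydes, had 0.14, 0.02, 0.29, 0.42 and 0.16 (limma adjusted p = 0.0759). On that design 0 of 3 aldehyde dehydrogenases passed by limma, with 2 at an unadjusted p under 0.05. Aldh16a1 was the lowest member, with −0.14, −0.04, −0.06, −0.14 and −0.30 (mean −0.14 ± 0.10, SD, n = 5, limma adjusted p = 0.136). Treated embryos were below control embryos in each of its replicates, yet the gene did not pass. Without the failing readout Aldh16a1 had 0.06 in replicate 4 and a mean of −0.09.

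Adh5, the glutathione-dependent formaldehyde dehydrogenase, was the only alcohol dehydrogenase measured. It had 0.24, 0.19, 0.20, 3.12 and 0.32 on array design 1, so the highest member mean of that design, 0.81 ± 1.29 (SD, n = 5, limma adjusted p = 0.204), rested on replicate 4. Without the failing readout replicate 4 stood at 0.39. The mean was then 0.27 ± 0.08 and passed (SD, n = 5, 1.20-fold, limma adjusted p = 0.0114).

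Akr1a1, the NADPH-dependent aldehyde reductase that reduces aldehydes to alcohols, rose on both of its array design 2 probes. Probe 1550 had 0.47, 0.45, 0.42, 0.33 and 0.37 (mean 0.41 ± 0.06, SD, n = 5, limma adjusted p = 5.83e-06). Probe 1582 had 0.55, 0.42, 0.35, 0.26 and 0.27 (mean 0.37 ± 0.12, SD, n = 5, limma adjusted p = 3.38e-05). Every replicate was above 0 on both probes. The probe of array design 1 had 0.42, 0.28, 0.19, 0.73 and 0.54 (limma adjusted p = 0.0516), and without the failing readout replicate 4 stood at 0.37 and the probe passed at 0.36 ± 0.13 (SD, n = 5, limma adjusted p = 0.0044).

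No other aldo-keto reductase was called higher. Akr1c19, of the hydroxysteroid dehydrogenase branch, had −0.22, −0.15, −0.20, −0.15 and −0.04, and fell by 0.15 ± 0.07 (SD, n = 5, limma adjusted p = 0.0346). It kept the call in 1 of 5 fits that left out a replicate, the fit without replicate 5. The 2 probes of Akr1c14 averaged 0.06 and −0.10, Akr1cl −0.01 and Akr1b10, on array design 1, 0.12. The carbonyl reductases Cbr2, on 2 probes, and Cbr3 averaged between −0.07 and 0.01, and Ephx1, the microsomal epoxide hydrolase, −0.09 ± 0.08 (SD, n = 5). None of these passed.

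Of the glutathione S-transferases, 3 of 11 probes of array design 2 were called, all higher, near the share of all probes (27.8% called, 19.8% higher), and none of the 3 calls held with the dye trend described below removed. Neither microsomal member was called. Gsta4, which conjugates the lipid aldehyde 4-hydroxynonenal, averaged 0.19 ± 0.21 (SD, n = 5, limma adjusted p = 0.0351), with replicate 2 at −0.08 and the others from 0.11 to 0.47. It was not called without replicate 1 or 5. The microsomal Mgst1, which joins glutathione to electrophiles at membranes, averaged −0.13 ± 0.08, with all 5 replicates below 0 (SD, n = 5, limma adjusted p = 0.0636). Mgst3 averaged −0.07 ± 0.10.

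The mu class, a gene cluster on chromosome 3, had 6 measured genes. Gstm2 was called on probe 1730, with 0.48, 0.55, 0.36, 0.13 and 0.13 (mean 0.33 ± 0.19, SD, n = 5, limma adjusted p = 0.000489). Its other probe, 4192, had −0.05, −0.16, −0.09, 0.12 and 0.02, with a mean of −0.03 (limma adjusted p = 0.694). Probe 1730 exceeded probe 4192 in all 5 replicates, by 0.01 to 0.71. An exact two-sided sign-flip test gave p = 0.0625, the smallest p that 5 pairs allow, and 0.625 after Benjamini-Hochberg adjustment over the 10 probe pairs compared. Mu class transcripts are alike in sequence and may hybridise to each other's probes.

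Gstm1 was called on probe 5147, with 0.30, 0.05, 0.04, 0.23 and 0.17 (mean 0.16, limma adjusted p = 0.0365), and not on probe 3243, with 0.30, −0.15, 0.19, 0.21 and 0.10 (mean 0.13, limma adjusted p = 0.107). The probes differed by 0.03 on average, less than the spread between replicates. The call of probe 5147 ended without replicate 1 or 4. Gstm4 and Gstm5 averaged 0.12 and 0.10, and Gstm6 and Gstm7 −0.07 and −0.11, without a call. Gsto1, the omega class enzyme, averaged 0.07 ± 0.14 and Gstcd −0.06 ± 0.08. Gstp1, the pi class enzyme that conjugates acrolein, had 0.03, 0.16, 0.19, 1.30 and 0.29 on array design 1. Replicate 4 lay far above the others there and stood at 0.06 without the failing readout, when the mean was 0.15 ± 0.10 (SD, n = 5, limma adjusted p = 0.0992).

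Enzymes of glutathione synthesis were on array design 1. Gclc, the catalytic subunit of the rate-limiting glutamate-cysteine ligase, averaged 0.13 ± 0.15 and 0.21 ± 0.32 on its 2 probes, and 0.05 ± 0.11 and 0.11 ± 0.15 without the failing readout (SD, n = 5 each). Neither probe passed in either fit. Gss, which completes glutathione, had 0.37, 0.17, 0.12, 0.36 and 0.18 (limma adjusted p = 0.0516). It passed without the failing readout at 0.26 ± 0.14 (SD, n = 5, limma adjusted p = 0.0189).

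**Figure D2:**
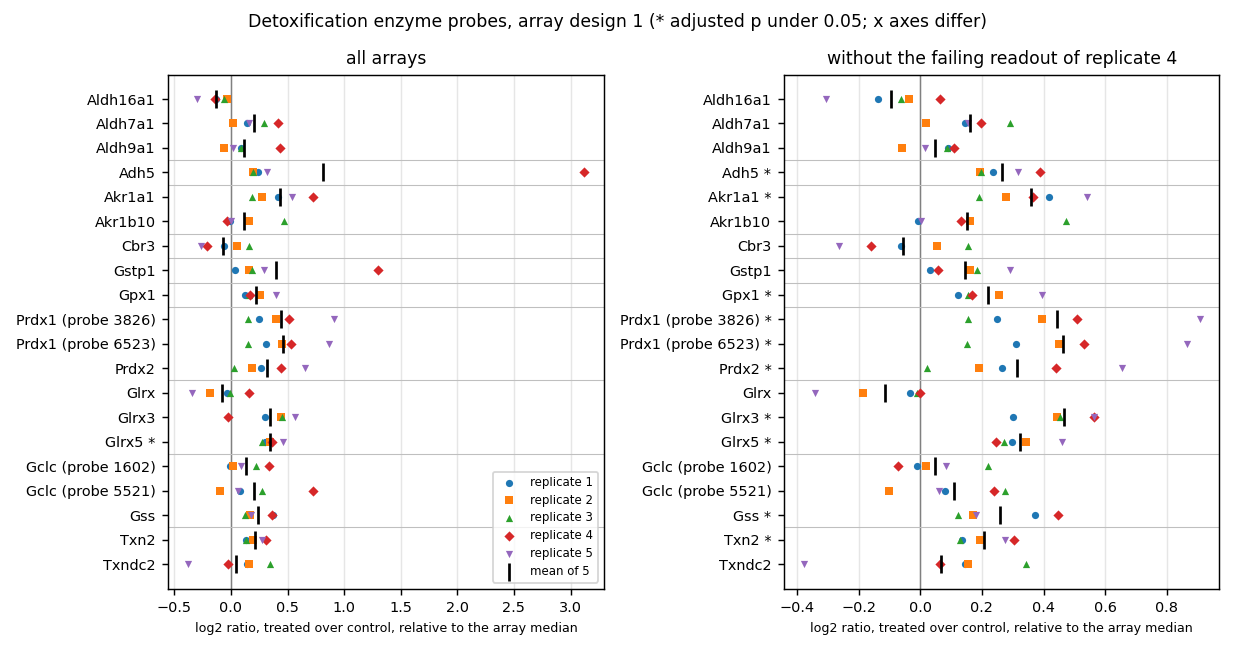
Log2 ratios of treated over control embryos, relative to the array median, for the 20 detoxification enzyme probes of array design 1, with all arrays (left) and without the failing readout of replicate 4 (right; the axes differ). Points are replicates, ticks the mean of 5 and asterisks limma adjusted p under 0.05; Adh5 and Gstp1 have replicate 4 at 3.12 and 1.30 on the left and at 0.39 and 0.06 on the right.

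Gpx3, the secreted glutathione peroxidase, had the highest mean among the 45 member probes of array design 2. Its log2 ratios were 0.49, 0.79, 0.58, 0.44 and 0.46. Replicate 2 was highest and no replicate came near 0. The rise averaged 0.55 ± 0.14, or 1.47-fold (SD, n = 5, limma adjusted p = 5.58e-07). It kept its call whichever replicate was left out, with adjusted p up to 0.000179.

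Gpx1, the abundant cytosolic peroxidase, had 0.39, 0.43, 0.21, 0.25 and 0.31 on array design 2 (mean 0.32 ± 0.09, SD, n = 5, limma adjusted p = 0.000131). On array design 1 Gpx1 had 0.12, 0.26, 0.16, 0.17 and 0.40 (mean 0.22, limma adjusted p = 0.0516). Treated embryos were higher in all 10 values. Gpx8, a peroxidase of the endoplasmic reticulum, had 0.29, 0.06, 0.31, 0.28 and 0.24 (mean 0.24 ± 0.10, SD, n = 5, limma adjusted p = 0.00282). Gpx4, which reduces lipid hydroperoxides, averaged 0.11 and 0.13 on its 2 probes and was not called (limma adjusted p = 0.170 and 0.069).

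Sod1, the cytosolic superoxide dismutase, had 0.45, 0.32, 0.47, 0.32 and 0.42. The replicates lay close together, at 0.40 ± 0.07 (SD, n = 5, 1.32-fold, limma adjusted p = 8.95e-06). Cat, the peroxisomal catalase that breaks down hydrogen peroxide, averaged 0.16 ± 0.10 (SD, n = 5, limma adjusted p = 0.0363), with replicates from 0.02 to 0.30. Cat kept its call in 1 of the 5 fits that left out a replicate, the fit without replicate 5.

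All 6 peroxiredoxin probes had means above the array median. Prdx3, the mitochondrial peroxiredoxin, had 0.31, 0.29, 0.23, 0.32 and 0.19 (mean 0.27 ± 0.05, SD, n = 5, limma adjusted p = 0.00053). Prdx4, of the endoplasmic reticulum, had 0.47, 0.22, 0.09, 0.14 and 0.12 on probe 4302 and 0.38, 0.11, 0.05, 0.12 and 0.17 on probe 4334. Replicate 1 was highest on both, and without it neither passed. Probe 4334 did not pass without replicate 2 or 4 either. The means were 0.21 and 0.17 (limma adjusted p = 0.0127 and 0.0345).

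Prdx1, a cytosolic peroxiredoxin and known NRF2 target, had 0.25, 0.39, 0.15, 0.51 and 0.91 on probe 3826 of array design 1 and 0.31, 0.45, 0.15, 0.53 and 0.87 on probe 6523. Both probes had the lowest value in replicate 3 and the highest in replicate 5. Their means were 0.44 ± 0.29 and 0.46 ± 0.27 (SD, n = 5 each, limma adjusted p = 0.0516 for both), and they passed without the failing readout (limma adjusted p = 0.0073 and 0.00506). Neither probe has a value in that readout, so the 5 replicate values are the same in both fits, and the variance estimate shared across probes and the adjustment over all probes differ. The replicate values of Prdx2, Gpx1 and Txn2 on that design are also the same in both fits. Prdx2, abundant in red blood cells, averaged 0.31 ± 0.24 (SD, n = 5, limma adjusted p = 0.0577, and 0.0205 without the failing readout). Akr1a1 and Prdx1 are adjacent protein-coding genes on chromosome 4 in the GRCm38.p6 gene table.

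Txn1, the cytosolic thioredoxin that reduces protein disulphides and peroxiredoxins, had 0.38, 0.49, 0.28, 0.30 and 0.41. All replicates were clearly above 0, with a mean of 0.37 ± 0.09 (SD, n = 5, 1.29-fold, limma adjusted p = 2.19e-05). Its mitochondrial counterpart Txn2 averaged 0.21 ± 0.08 on array design 1 and passed without the failing readout (SD, n = 5, limma adjusted p = 0.0301, and 0.0516 with all arrays). Txnip, the thioredoxin inhibitor, had 0.50, 0.04, 0.30, 0.06 and 0.21 (mean 0.22 ± 0.19, SD, n = 5, limma adjusted p = 0.0114). The call of Txnip ended without replicate 1.

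Txnl1, a thioredoxin-like protein bound to the proteasome, had 0.36, 0.21, 0.10, 0.15 and 0.29 (mean 0.22 ± 0.11, SD, n = 5, limma adjusted p = 0.00501). Txnl4a, the spliceosome component, averaged 0.21 ± 0.17 and was called (limma adjusted p = 0.0117), but not without replicate 1. Txndc17, a cytosolic thioredoxin-related protein, was called on probe 6759 with 0.47, −0.04, 0.24, 0.21 and 0.31 (limma adjusted p = 0.00747). Its probe 4406 had 0.19, −0.01, 0.05, 0.16 and 0.14 and was not called (limma adjusted p = 0.134). Both of its probes were lowest in replicate 2 and highest in replicate 1, and the call of probe 6759 ended without replicate 1. Txndc12 and Txndc16 averaged 0.09 and 0.13 without a call.

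Glutaredoxins, which use glutathione to reduce protein thiols, were on array design 1. Glrx5, the mitochondrial glutaredoxin of iron-sulphur cluster assembly, had 0.30, 0.34, 0.27, 0.36 and 0.46 (mean 0.35 ± 0.07, SD, n = 5, 1.27-fold, limma adjusted p = 0.0382). It was the only 1 of the 20 member probes of that design called with all arrays, where 0.651% of all 7680 probes were called, 0.638% higher and 0.013% lower. Its call ended without replicate 1, 2, 3 or 5, with limma adjusted p up to 0.133. Glrx3, a glutaredoxin of cytosolic iron handling, had 0.30, 0.45, 0.46, −0.03 and 0.56, with replicate 4 at 0.56 without the failing readout. The mean without that readout was 0.47 ± 0.11 (SD, n = 5, limma adjusted p = 0.000834). Glrx, the cytosolic glutaredoxin, averaged −0.08 ± 0.19 and was not called.

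Without the failing readout, 10 of the 20 probes of array design 1 passed, all higher, from 0.21 to 0.47. They belonged to Adh5, Akr1a1, Gpx1, Prdx1, Prdx2, Glrx3, Glrx5, Gss and Txn2. In that fit 15.9% of all probes passed, 10.2% higher and 5.77% lower. The median log2 ratio was 0.18 over the members and −0.0024 over all probes.

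**Figure D3:**
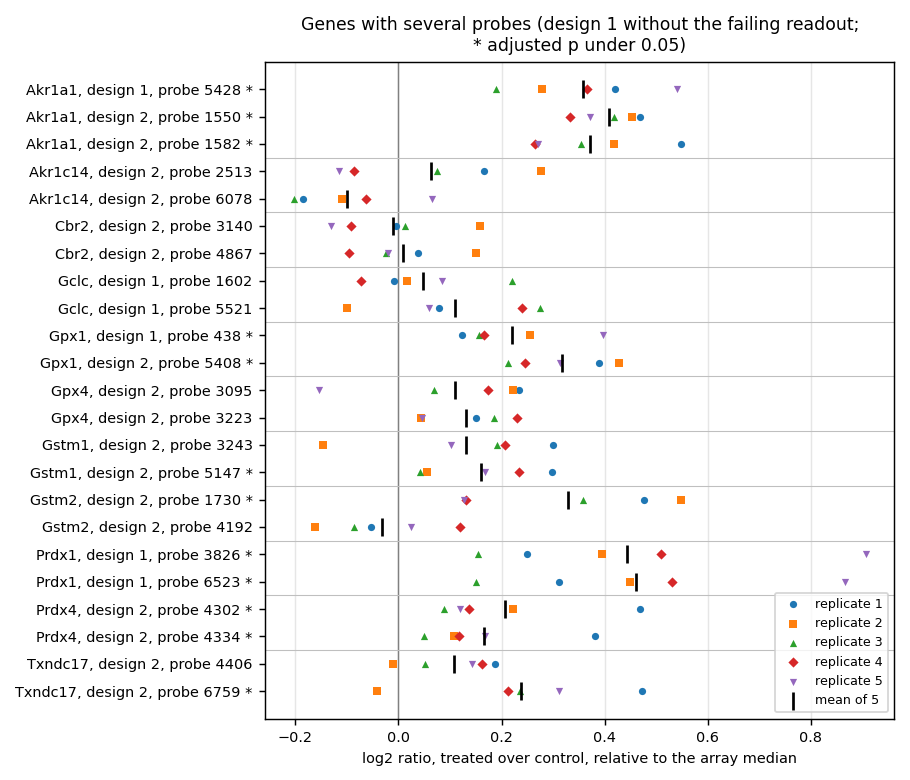
Log2 ratios of treated over control embryos, relative to the array median, for genes with 2 or more probes, with replicates as points, the mean of 5 as a tick and asterisks for limma adjusted p under 0.05 (array design 1 without the failing readout). The 3 probes of Akr1a1 and the pairs of Prdx1 and Prdx4 lie close together, while probes 1730 and 4192 of Gstm2 average 0.33 and −0.03.

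The dye orientations were then set side by side, because each value averages arrays with treated embryos in channel 1 and in channel 2. On array design 2, 11 of the 20 called probes had 1 sign in both orientations and 9 had opposite signs. The share with opposite signs among all called probes of that design was not counted. Sod1 averaged 0.40 in both. Gpx3 averaged 0.47 with treated embryos in channel 1 and 0.63 with treated embryos in channel 2, Txn1 0.25 and 0.50, and Gpx1 0.20 and 0.43. By contrast, Akr1a1 averaged 0.83 and −0.01 on probe 1550, Gstm2 0.88 and −0.23 on probe 1730 and Prdx3 0.65 and −0.12. Akr1c19, called lower, averaged −0.39 and 0.09.

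The dye part, the mean of both orientations without turning them, was larger in size than the treatment ratio in 29 of 45 member probes of array design 2 and in 4 of 20 of array design 1. A larger dye part is the same as opposite signs in the orientations, so these counts restate that split over all members. The share over all probes was not counted. By limma the dye part passed a test of its own in 0 member probes of array design 2 (0% of all probes, with 9 members at an unadjusted p under 0.05) and in 1 of array design 1, Txndc2, above 0 (16.2% of all probes, 14% above and 2.14% below 0). A smooth trend over the dye profile of all probes accounted for 35.3% to 61.6% of the variance of a replicate on array design 2 and for 34.0% to 81.5% on array design 1. With that trend removed on array design 2, 4 member probes passed, all higher, where 5.03% of all probes passed, 3.15% higher and 1.88% lower. They were Gpx3 at 0.41 ± 0.19 (limma adjusted p = 0.00803), Sod1 at 0.22 ± 0.08 (limma adjusted p = 0.0137), Akr1a1 probe 1582 at 0.17 ± 0.07 (limma adjusted p = 0.0308) and Txn1 at 0.19 ± 0.11 (limma adjusted p = 0.0344; SD, n = 5 each). Aldh3b1 and Akr1c19 then averaged −0.05 and −0.01, and neither fall passed.

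On array design 1, removal of the trend left 0 members called by limma (0.781% of all probes were called), with 10 at an unadjusted p under 0.05. There were 2 called with the failing readout also left out, Adh5 at 0.19 and Glrx3 at 0.30 (limma adjusted p = 0.0333 and 0.0157, where 1.54% of all probes passed, 0.977% higher). What part of each member's ratio belongs to treatment and what part to the dye trend was not tested. The slide series, the only batch mark in the labels, gave 1 sign in both series for all 20 called members of array design 2. For the 18 of them with 1 sign in all 5 replicates, this follows from the replicate signs and is no separate check. Gpx3 averaged 0.62 in the 2000 series and 0.45 in the 3000 series, Sod1 0.41 and 0.37, and Gstm2 probe 1730 0.46 and 0.13. By limma the difference between the series passed for 0 members on either design (0% of all probes), with 0 on array design 1 and 2 on array design 2 at an unadjusted p under 0.05.

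**Figure D4:**
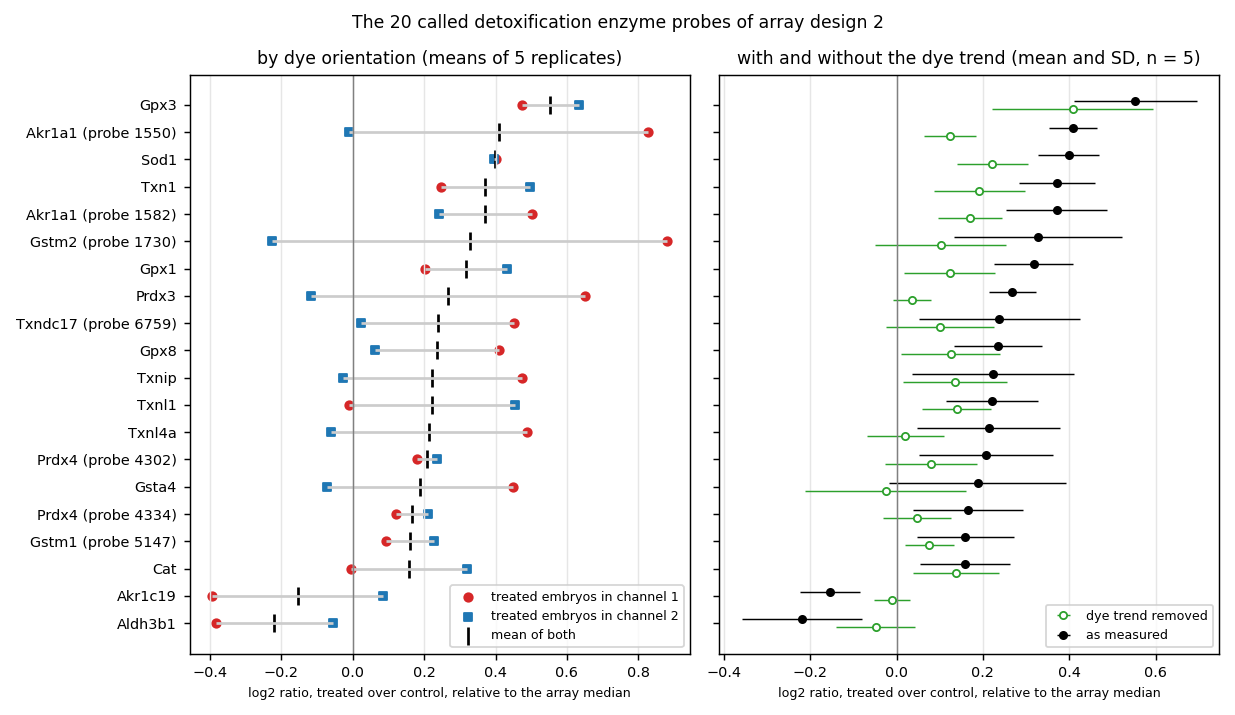
The 20 called detoxification enzyme probes of array design 2, as log2 ratios of treated over control embryos relative to the array median. On the left, circles are arrays with treated embryos in channel 1, squares those with treated embryos in channel 2 and ticks the mean of both; Sod1 has 0.40 in both, Gstm2 probe 1730 has 0.88 and −0.23. On the right, open symbols have the dye trend removed and filled symbols are as measured, with SD of 5 replicates.

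Of the other genes of the NRF2 pathway, 7 of 17 probes passed higher and 1 lower on array design 2, where 27.8% of all probes passed. The 2 probes of Cul3, the ubiquitin ligase scaffold that serves NRF2 turnover, were called in opposite directions, with means of 0.14 and −0.15. Of the 20 such probes on array design 1, 6 passed higher, where 0.651% of all probes passed, and 5 of the 6 were probes of Ftl1, beside Txnrd1. Without the failing readout it was 11 of 20, where 15.9% of all probes passed. Nfe2l2, which encodes NRF2, averaged 0.48 ± 0.16 on array design 2 (limma adjusted p = 5.38e-06; SD, n = 5). Its probe on array design 1, 6715, was not called with all arrays. Hmox1, the haem oxygenase, averaged 0.47 ± 0.24 on array design 1 and missed the threshold with all arrays (SD, n = 5, limma adjusted p = 0.0516). Hmox1 passed without the failing readout (limma adjusted p = 0.0033), with the dye trend removed (mean 0.47, limma adjusted p = 0.00783) and with both (limma adjusted p = 0.00623). Txnrd1, which reduces thioredoxin, averaged 0.33 ± 0.06 (SD, n = 5, limma adjusted p = 0.0382). Ftl1, the ferritin light chain, averaged 0.43 ± 0.09 and Idh1, an NADPH source, 0.42 ± 0.11 on array design 2 (limma adjusted p = 5.62e-06 and 8.88e-06; SD, n = 5 each). With the dye trend removed, 3 of the 17 probes of array design 2 passed higher and 0 lower. Of all probes of that design, 3.15% then passed higher and 1.88% lower. Nfe2l2 averaged 0.41, Ftl1 0.24 and Idh1 0.20 on that design and kept their calls. On array design 1, 5 of the 20 passed higher with the trend removed, where 0.781% of all probes passed.

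Tkt, a pentose phosphate enzyme, averaged 0.28 on probe 3854 of array design 2 and −0.0047 with the trend removed. Of the 10 probes for other enzymes of glutathione and aldehyde handling on array design 2, 4 passed higher and 1 lower. Over all probes of that design 27.8% passed, 19.8% higher and 8.07% lower. With the dye trend removed 2 of the 10 passed higher and 1 lower, where 3.15% of all probes passed higher and 1.88% lower. Glo1, which uses glutathione to clear methylglyoxal, averaged 0.37 ± 0.09, Mthfd1, a folate enzyme, 0.45 ± 0.22, Selenow, a selenoprotein, 0.34 ± 0.07 and Ahcy, which hydrolyses S-adenosylhomocysteine, 0.24 ± 0.11 (SD, n = 5 each). These 4 means have the dye trend left in, and at most 2 of these 4 calls held with it removed. On array design 1, 1 of 9 such probes passed, where 0.651% of all probes did. It was Cyb5r3, a cytochrome b5 reductase, at 0.33 ± 0.10 (SD, n = 5, limma adjusted p = 0.0499). Without the failing readout 4 of 9 passed, all higher, where 15.9% of all probes passed. With the dye trend removed none of the 9 was called by limma, where 0.781% of all probes were called.

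Red blood cells are rich in Prdx2, Gpx1 and Cat, so erythroid markers were read beside them. On array design 2, 7 of 11 erythroid probes passed higher, where 19.8% of all probes did. All 7 were globin probes, those of the embryonic Hbb-y at 0.58 to 0.63 on 4 probes and Hba-x at 0.58, and of Hbb-b1 at 0.29 and 0.50. With the dye trend removed 4 of the 11 passed higher, where 3.15% of all probes did. Hba-x and Hbb-b1 probe 3847 did not then pass (limma adjusted p = 0.105 and 0.457). With treated embryos in channel 1 and in channel 2, Hba-x averaged 0.001 and 1.16, Hbb-b1 probe 3847 0.96 and −0.38, and its probe 4635 0.67 and 0.33. The haem synthesis enzyme Alas2 averaged 0.00 ± 0.12 and the red cell anion exchanger Slc4a1 0.11 ± 0.12 (SD, n = 5 each), neither called. On array design 1, 0 of 3 erythroid probes were called by limma (1 at an unadjusted p under 0.05), where 0.651% of all probes were. Their means ran from −0.06 to 0.24. Of the visceral endoderm markers, 0 of 3 probes on array design 2 passed by limma (1 at an unadjusted p under 0.05), where 27.8% of all probes passed. On array design 1 it was 0 of 10 (2 at an unadjusted p under 0.05), where 0.651% of all probes passed. Without the failing readout 1 of the 10 passed, Dab2, where 15.9% of all probes passed. The part of these cell types in the ratios of the detoxification enzymes was not tested.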

How the data were processed

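All 40 arrays compare treated with control embryos by their total RNA, 1 dye channel each, per the labels, which also give the channel. The deposited values are log2 ratios made by the authors, uncentred, with base 2 assumed. The sources used here do not state background correction, normalization or numerator.

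Each array was centred on its median, spots with 1 accession were averaged, control-over-treated arrays were turned, the plain and B readouts were averaged, and the mean of both orientations gave 1 value per replicate. Each probe with at least 3 replicate values was tested against 0 within each array design with limma 3.58.1 (lmFit and eBayes, R 4.3.3), two-sided, with Benjamini-Hochberg adjustment over all probes and a threshold of 0.05. The dye trend was fitted with mgcv 1.9.3 over 3 components of the dye part (bases of 40 and 8). The limma test was also run on simulated replicate values, drawn independently for each probe. These held no dye trend, so that run did not test the fits against one. Confidence intervals are 95%.

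Members with 1 gene symbol were named through the platform annotation. Probes assigned to several genes were left out. The members, lists and alternatives were chosen with earlier results of these data known. Named with replicate values are up to 12 called probes per design with 1 sign in all 5 replicates, the highest and lowest member, and all probes of called genes with several. Members of array design 1 called only without the failing readout, others that did not pass, and Cul3 were named after their values were seen. Other pathway genes are the 4 with the smallest p per list and design, and Hmox1, Txnrd1 and Nfe2l2.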

Additional observations from a re-analysis of the deposited data

Results flagged for a closer look

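Of the 81 probes tested for a replicate that stands far from the other 4, 3 had one, and chance flags about 1 in 20 groups. Adh5 on array design 1 had 3.12 in replicate 4, against 0.19 to 0.32 in the others, and replicate 4 stood at 0.39 without the failing readout. Gstp1 on the same design had 1.30 in replicate 4, against 0.03 to 0.29, and 0.06 there without that readout. Gstm5 on array design 2 had 0.24 in replicate 1, against 0.03 to 0.08 in the other replicates. In each the replicate was above the rest.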

How the results depend on the processing

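The members called numbered 20 of 45 on array design 2 and 1 of 20 on array design 1, among 2114 and 50 of all probes. Leaving out each replicate gave 10 to 22 and 0 to 3 members, 1013 to 2637 and 7 to 82 of all probes, 0 to 5 and 1 members with a dye part called, and 0 with a series difference. The lowest member count of array design 2, 10, came without replicate 1. Of its 20 calls, 10 were kept whichever replicate was left out.

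Without centring 33 members of array design 2 and 3 of array design 1 were called, all lower, beside 6655 and 4615 of all probes, of which 6634 and 4596 were lower; the medians of uncentred replicates ran from −0.66 to −0.10, and no dye part was called in a member of array design 1. Of the 18 member probes called higher on array design 2, only Gpx3 stayed above 0, at 0.12. The means of Akr1a1 (−0.021 and −0.058), Gpx1 (−0.11), Gpx8 (−0.19), Gstm1 (−0.30 and −0.27), Gstm2 probe 1730 (−0.10), Prdx3 (−0.16), Prdx4 (−0.22 and −0.26), Sod1 (−0.031), Txn1 (−0.058), Txndc17 (−0.32 and −0.19), Txnip (−0.21), Cat (−0.27), Gsta4 (−0.24), Txnl4a (−0.22), Txnl1 (−0.21), Ahcy (−0.19), Ftl1 (−0.0033), Glo1 (−0.062), Idh1 (−0.011), Selenow (−0.093) and Tkt (−0.15) then turned negative. With treated embryos in channel 1 only, 13 (10 higher, 3 lower) and 2 members were called on array designs 2 and 1, among 1190 and 2324 of all probes, and Txnl1 averaged −0.011. With treated embryos in channel 2 only, 0 members (5 at an unadjusted p under 0.05) and 3 members were called by limma, among 117 and 1108, and Akr1a1 probe 1550 averaged −0.010, Gstm2 probe 1730 −0.23, Prdx3 −0.12, Txnip −0.028 and Tkt −0.054.

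On array design 1, plain readouts gave 6 members and 501 of all probes, B readouts 0 (7 unadjusted) and 3, and scaled arrays 5 and 345. Single arrays with a replicate block gave 7 and 569, and array weights 7 and 688. A term for the slide series gave 0 (11 unadjusted) and 25, the 3000 series alone 0 (10 unadjusted) and 3, and the 2000 series alone 2 and 60. The threshold 0.01 gave 0 and 5, and the threshold 0.1 gave 10 and 1912. Averaging the probes of a gene gave 2 member genes, among 55 of 3838 genes. Leaving out the failing readout gave 10 and 1224, removing the trend gave 0 (10 unadjusted) and 60, and both together gave 2 and 118. On array design 2, plain readouts gave 13 members and 1076 of all probes, scaled arrays 16 and 1331, and the 3000 series alone 9 and 811. The threshold 0.01 gave 12 and 1043, and the ordinary one-sample test 8 and 869. Averaging the probes of a gene gave 18 member genes among 1198 of 4075 genes, a count of genes and not of probes. Removing the trend gave 4 and 382, with Tkt at −0.0047. With scaled arrays a dye part was called in 1 member of array design 2 and in 3 of array design 1. Averaging gave Gstm2 0.15 where probe 4192 alone had −0.03. The causes of these shifts were not tested.

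The log ratios already pair treated with control embryos on each array, so the one-sample test is itself paired. The fit on single arrays with a replicate block called 19 members higher and 3 lower on array design 2 (22 in all), against 7 called on array design 1. Of all probes it called 2471 on array design 2 and 569 on array design 1. No depth can be given for arrays, and signal over background is unknown because the values are ratios.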
